A study of Mus musculus with 4 samples.

Results

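The genes described here encode the machinery that carries a new protein into the endoplasmic reticulum (ER), folds it there and ships it to the Golgi. They were taken by name from the count table. The names were those of the Sec, Ssr, Spcs, Pdia, Tmed, Cop (a, b, e, g, z) and Srp series together with Hspa5, Hsp90b1, Calr and Canx, which gave 66 of 15305 gene rows. The cells came from tissue of the subventricular zone and striatum of Penk-Cre Ai9 mice, whose genotype field reads WT. In this line Cre is driven by Penk and turns on tdTomato, a red fluorescent reporter. Single tdTomato+ cells were sorted and sequenced, after exclusion of CD11b+ cells in dataset A and without that gate in dataset B. The table held 82 cells, 41 in each dataset. All groups share the Cre and the reporter, which marks cells with past or present Penk activity. The ages and number of the mice are not given in the labels, and each gate is 1 dataset.

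The labels name 4 samples, each dataset having 1 of neuroblasts and 1 of quiescent neural stem cells, but no cell could be tied to one of them. Cells were therefore classed by their counts. Enpp2-rich cells had Enpp2 at 1% or more of all counts, and each dataset had 16 of them. Sox11 cells had 10 or more Sox11 counts and were not Enpp2-rich, and there were 16 in dataset A and 25 in dataset B. The remaining 9 cells met neither rule and were all in dataset A. The nearest cells to the Enpp2 threshold held 0.999% and 1.25%, and the nearest to the Sox11 threshold held 7 and 20 counts. In all, 2 cells met both rules and were counted as Enpp2-rich.

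Cells held 530630 to 7765650 counts. Ttr, which encodes the secreted carrier protein transthyretin, and Enpp2, which encodes the secreted enzyme autotaxin, took 42.2% of the Enpp2-rich pool of dataset A, 20.0% of that of dataset B and 10.7% of the Sox11 pool of dataset A. They took 0.0206% or less of the other 2 pools. All levels below are CPM (counts scaled to a total of 1000000) with both genes left out of the total, for the pooled cells of a class in one dataset, unless a single cell is named. Of 19 choroid plexus genes, the median Enpp2-rich cell had 13 (dataset A) and 10.5 (dataset B) at 10 counts or more, against 0 in both sets of Sox11 cells. Of 24 neuroblast genes, the median Sox11 cell had 14 and 17, against 0.5 and 0 in Enpp2-rich cells. The remaining cells had a median of 13 of 18 astroglia genes (0 to 16 per cell), and their highest levels in a single cell were 428962 CPM for oligodendrocyte lineage genes and 11035 CPM for microglia genes. Microglia genes reached 52653 CPM in a Sox11 cell of dataset A. In a Sox11 cell of dataset B, 13 of 15 microglia genes had 10 counts or more. Astroglia genes had a median summed level of 18018 and 5454 CPM in Enpp2-rich cells against 3666 and 769 in Sox11 cells, 6 ependymal genes 84.2 and 712 against 0 and 0, and 11 striatal projection neuron genes 88.0 and 890.1 against 4.01 and 0. The part of these genes in the differences below was not tested. In dataset A, 4 cells carried at least 4 genes of both the choroid plexus and the neuroblast list, and 1 of them was a Sox11 cell with 78.2% of its counts in Ttr.

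A secreted or membrane protein is led by the signal recognition particle to the Sec61 channel, passes into the ER and loses its signal peptide there. Lectin and Hsp70-type or Hsp90-type chaperones and protein disulfide isomerases fold it, and vesicles coated with COPII carry it on, while COPI vesicles return escaped ER proteins. The choroid plexus epithelium is a professional secretory tissue that releases transthyretin and other proteins into the cerebrospinal fluid.

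Genes for ER folding proteins are known targets of the unfolded protein response, whose transcription factors act through the ER stress response element. The consensus was searched on both strands as CCAAT, 9 bases of any kind and CCACG, in windows of 300 bases that reach from 250 bases before a gene's start to 50 after it (RefSeq, GRCm38.p6). Of the 66 members, 54 matched a window by symbol, and 5 of them held the element. They were 4 chaperone genes and 1 isomerase gene, and their stretches are shown because the element has a known part in the control of folding genes. The windows of Pdia3, Pdia4 and Pdia5 held no match to these letters. The element is in capitals, and each stretch is 5′ to 3′ on the gene's own strand.
Hspa5: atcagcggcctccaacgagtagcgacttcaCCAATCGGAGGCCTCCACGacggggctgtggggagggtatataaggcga
Hsp90b1: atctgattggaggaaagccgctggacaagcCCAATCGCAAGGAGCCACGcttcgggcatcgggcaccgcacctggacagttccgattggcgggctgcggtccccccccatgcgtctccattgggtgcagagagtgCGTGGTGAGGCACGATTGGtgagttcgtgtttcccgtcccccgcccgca
Calr: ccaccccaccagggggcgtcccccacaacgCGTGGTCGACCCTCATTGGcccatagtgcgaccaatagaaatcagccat
Canx: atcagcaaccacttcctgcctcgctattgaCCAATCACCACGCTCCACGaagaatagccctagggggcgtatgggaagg
Pdia6: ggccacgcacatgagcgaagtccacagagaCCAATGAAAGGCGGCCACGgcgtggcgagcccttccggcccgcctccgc
The stretch of Hspa5 lies at chr2:34771995-34772073 on the plus strand, and its element begins 65 bases before the start. The stretch of Hsp90b1 is on the minus strand at chr10:86705503-86705686 and holds 2 elements in opposite orientations, beginning 212 and 107 bases before the start. Calr, on the minus strand at chr8:84847045-84847123, has its element in reverse orientation from 162 bases before the start. In Canx the element begins 145 bases before the start, in a stretch at chr11:50325770-50325848 on the minus strand. In Pdia6 it begins 98 bases before the start, in a stretch at chr12:17266461-17266539 on the plus strand. The same search found the element in 37 of 27025 genes, or 0.137%, and in 0.119% of all windows of this length. The element was already known from the control of folding genes, so setting the members beside these shares does not test them. A match describes letters in a window and is not evidence of binding.

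Among the 3158 tested genes with a window, 10 held the element. The 5 members had both Enpp2-rich pools above both Sox11 pools, but they were chosen with results of these data known. Of the 5 genes outside the members, 1 had both above, which was Dnajc3, the gene of an ER co-chaperone. Another 3 had both below, which were Hnrnpa3, Adcy3 and Zfp57. Over all 4052 genes tested, with or without a window, 23.7% had both above and 32.9% both below. The pools of Syvn1, which encodes a ubiquitin ligase of ER-associated degradation, overlapped. None of the 10 passed the test described next.

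Of the 66 members, 48 reached 10 counts in at least 8 of the 82 cells, whatever their class, and were tested with the other genes that did. Each gene was compared between the 2 Enpp2-rich and the 2 Sox11 pools with edgeR's quasi-likelihood test, with Benjamini-Hochberg adjustment over all 4052 genes. The test called 0 genes (0%), members included. An unadjusted p under 0.05 was found for 599 genes, among them 6 members, and the adjusted p of the members ran from 0.266 to 0.989. DESeq2 called 445 genes higher in Enpp2-rich cells (11%) and 593 lower (14.6%), and of the 48 members 10 higher and 0 lower. The 10 were Hspa5, Hsp90b1, Calr, Pdia3, Pdia4, Tmed3, Tmed10, Tmed10-ps, Sec61b and Sec61g. Without the filter on low counts edgeR called 258 of 13185 genes (1.96%), and Pdia3 was the 1 member called of 61 tested there (adjusted p = 0.038), a share near that of all genes. The p-values measure the spread between the 2 datasets, which differ in their gate, and the labels do not say how many sorts or animals each dataset held.

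Read without a test, 21 of the 48 members (43.75%) had both Enpp2-rich pools above both Sox11 pools after TMM scaling (edgeR's trimmed mean of M-values), against 23.7% of all genes. Another 7 (14.6%) had both below, against 32.9% of all genes, and the pools of 20 overlapped. The median log2 difference was 0.87 over the members and -0.34 over all genes tested. Without the Enpp2-rich pool of dataset A the members' median was 0.28 and 15 members were lower, beside 43.1% of all genes. Without the Enpp2-rich pool of dataset B 11 were lower, beside 45.3% of all genes, and without the Sox11 pool of dataset B 14, beside 43.3%. With library sizes alone in place of TMM, 18 members were higher and 10 lower, beside 20.9% and 35.7% of all genes, and the median over all genes was -0.60. Leaving out the 4 cells with markers of both classes gave 20 higher and 7 lower, beside 23.8% and 34.1% of all genes. Because the members were chosen with results of these data known, these counts describe them and do not test them.

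The difference in summed level lay mainly in the genes of folding proteins. The 8 chaperone and isomerase genes summed to 15030 CPM in the Enpp2-rich pool of dataset A and 7652 in that of dataset B. In the same order, the Sox11 pools held 2401 and 2099, and in the remaining cells to 3041. The Enpp2-rich pools were thus 6.26-fold and 3.65-fold higher within their datasets, and 4.05-fold and 2.92-fold higher when Ttr and Enpp2 stayed in the totals. The other 58 members summed to 8046 and 7646 CPM in Enpp2-rich cells and to 7496 and 6281 in Sox11 cells. Those folds were 1.07 and 1.22, and they fell below 1, to 0.695 and 0.975, with Ttr and Enpp2 in the totals. Gene by gene after TMM scaling, 41 of these 58 were tested. Of the 41, 14 had both Enpp2-rich pools higher and 7 both lower, beside 23.7% and 32.9% of all genes. Their median log2 difference was 0.62, against -0.34 over all genes tested. Folding genes took 65.1% and 50.02% of all member CPM in the Enpp2-rich pools, 24.3% and 25.1% in the Sox11 pools and 35.1% in the remaining cells. Counts were not scaled to gene length, so these shares compare pools and not genes. Without the 4 cells with markers of both classes, the folds of the folding genes were 7.25 and 3.65.

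**Figure D1:**
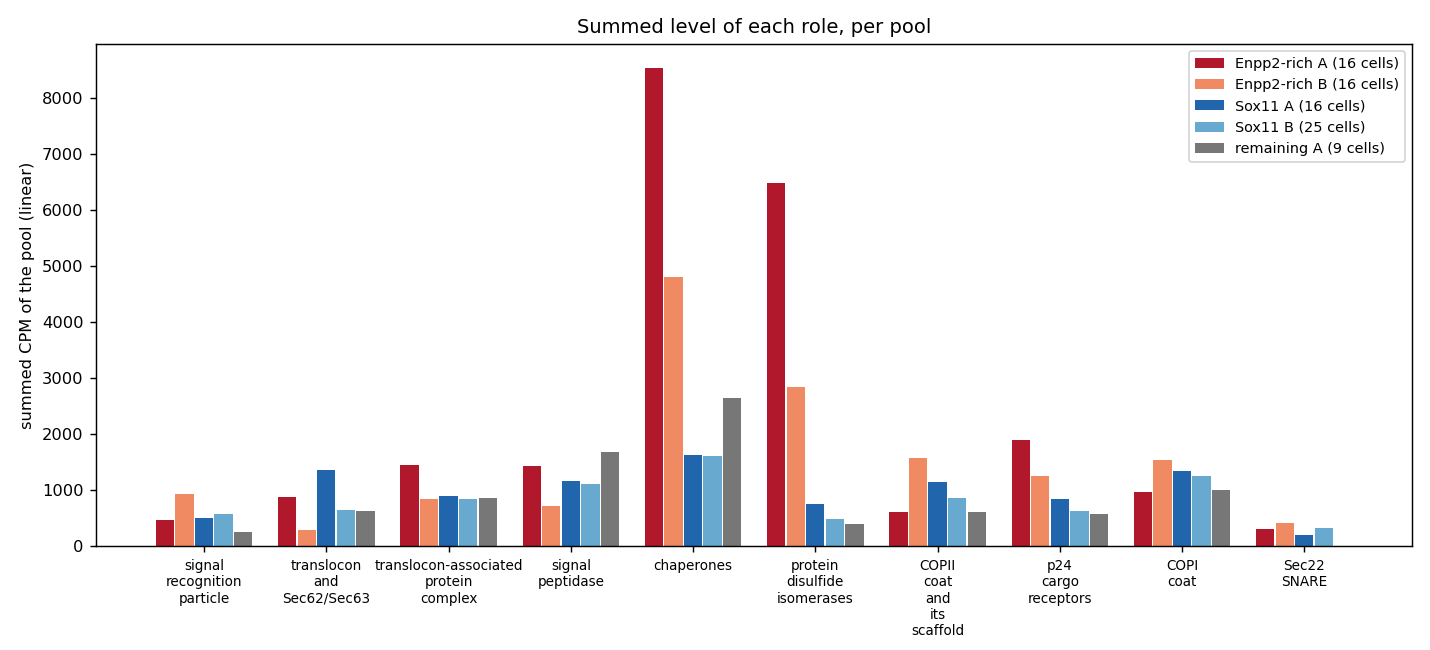
Summed CPM (linear axis, Ttr and Enpp2 left out of the totals) of the members of each role, with 1 bar per pool and the number of cells in the key; there are no error bars because each bar is 1 pool. Chaperones are at 8537 and 4807 CPM in the Enpp2-rich pools against 1640 and 1609 in the Sox11 pools, and protein disulfide isomerases at 6492 and 2845 against 761 and 490 in the same order.

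Hspa5 encodes BiP, the Hsp70 chaperone of the ER lumen. Its level was 3736 and 2435 CPM in the Enpp2-rich pools of datasets A and B, 679 and 442 in the Sox11 pools and 1243 in the remaining cells. The log2 difference was 2.75 (SE 1.00, adjusted p = 0.314). It had 10 counts or more in 16 of 16 and 13 of 16 Enpp2-rich cells, in 12 of 16 and 10 of 25 Sox11 cells and in 5 of 9 remaining cells. In dataset B these shares were 81.25% (95% exact Clopper-Pearson interval 54.4% to 96.0%) and 40% (21.1% to 61.3%), intervals that cover counting error only. The classes overlapped cell by cell in dataset B, where 3 of 25 Sox11 cells lay above the Enpp2-rich median of 1824 CPM, while in dataset A 0 of 16 lay above the median of 3342. No single cell gave more than 22.1% of the Hspa5 counts of any of these 4 pools.

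Hsp90b1, which encodes the Hsp90 of the ER (GRP94), was at 1984 and 1066 CPM in Enpp2-rich cells, 205 and 237 in Sox11 cells and 580 in the remaining cells. Both Enpp2-rich pools lay above both Sox11 pools, with a log2 difference of 3.11 (SE 1.03, adjusted p = 0.276). It reached 10 counts in 16 and 13 Enpp2-rich cells against 6 and 10 Sox11 cells.

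Canx and Calr encode calnexin and calreticulin, the membrane-bound and the soluble lectin that hold newly glycosylated proteins. Canx was at 2312 and 1133 CPM in Enpp2-rich cells, 699 and 878 in Sox11 cells and 496 in the remaining cells, a log2 difference of 1.47 (SE 0.99, adjusted p = 0.611). Within dataset B the pools were close, and the fold was 1.03 with Ttr and Enpp2 in the totals. Of the 25 Sox11 cells there, 11 lay above the Enpp2-rich median of 746 CPM. Calr was at 506 and 173 CPM in Enpp2-rich cells, 57.8 and 51.0 in Sox11 cells and 329 in the remaining cells, a log2 difference of 3.01 (SE 1.27, adjusted p = 0.384). Without the Enpp2-rich pool of dataset A it was 1.55. Its pools did not overlap, but it reached 10 counts in only 5 of 16 Enpp2-rich cells of dataset B, and 1 cell gave 73.5% of its counts in the Sox11 pool of dataset A.

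The isomerases form and rearrange disulfide bonds. Pdia3, the partner of calnexin and calreticulin (ERp57), was at 3889 and 2086 CPM in Enpp2-rich cells, 524 and 133 in Sox11 cells and 344 in the remaining cells. Cell by cell, 0 of 16 and 0 of 25 Sox11 cells lay above the Enpp2-rich medians of 3949 and 1294 CPM. Its log2 difference was 3.48 (SE 1.26, adjusted p = 0.313).

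Pdia4 (ERp72) was at 1747 and 470 CPM in Enpp2-rich cells, 104 and 84.6 in Sox11 cells and 49.4 in the remaining cells. Its log2 difference was 3.95 (SE 1.27, adjusted p = 0.270), the highest among the members tested. However, it was below that of Pdia3 in the fit with the dataset as a replicate block (3.48 against 3.64). The same held without the Enpp2-rich pool of dataset A (2.20 against 2.55) and without the Sox11 pool of dataset A (4.15 against 4.86). The Sox11 level of Pdia4 in dataset A was mostly 1 cell, with 86.5% of the counts, and only 6 of 16 Enpp2-rich cells of dataset B reached 10 counts. Pdia6, the isomerase P5, was at 857 and 288 CPM in Enpp2-rich cells, 133 and 273 in Sox11 cells and 0 in each of the 9 remaining cells. For remaining cells with 10 counts or more, the same kind of interval reaches 33.6%. It covers counting error only, so it does not limit the share of cells that express the gene. The log2 difference of Pdia6 was 1.89 (SE 1.16, adjusted p = 0.570). In dataset B its classes were nearly level, and the pools overlapped with library sizes alone, with no filter on low counts, with edgeR's own filter and without the Enpp2-rich pool of dataset A. They stood at a fold of 0.847 with Ttr and Enpp2 in the totals. Pdia5 had no count in any cell. Without the Enpp2-rich pool of dataset A, the log2 difference was 1.999 for Hspa5, 2.15 for Hsp90b1, 0.40 for Canx and 0.39 for Pdia6, on the same side as with all pools.

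**Figure D2:**
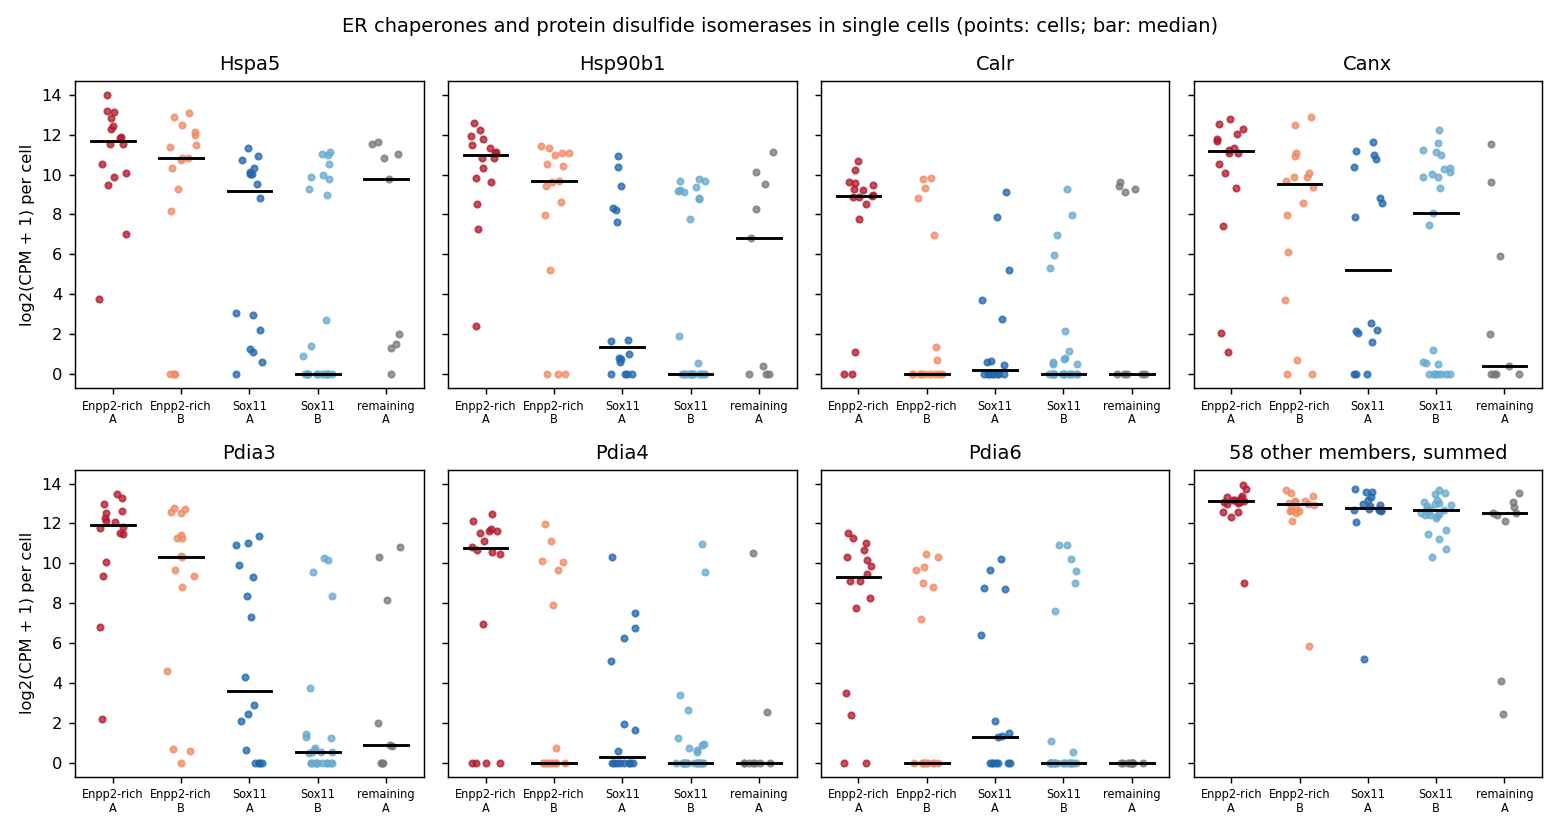
Level of 7 folding genes and of the sum of the 58 other members in each cell, as log2(CPM + 1) with Ttr and Enpp2 left out of the totals, by class and dataset; each point is 1 cell and the bar is the median. Hspa5, Hsp90b1 and Pdia3 are high in most Enpp2-rich cells of both datasets, Calr, Pdia4 and Pdia6 have a median of 0 in Enpp2-rich cells of dataset B, and the summed other members lie at a similar height in the classes.

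The plates of dataset B gave a smaller comparison within 1 gate. On plate PL4 the folding genes summed to 10760 CPM in 10 Enpp2-rich cells and 3205 in 4 Sox11 cells. On plate P3 they summed to 4508 in 4 Enpp2-rich cells and 1664 in 3 Sox11 cells. On plate P1 the order was the opposite, with 1629 in 2 Enpp2-rich cells and 2303 in 12 Sox11 cells. Plate P2 held 6 Sox11 cells and 0 Enpp2-rich cells, at 1348. Dataset A lay on 1 plate. Pdia3 was above Sox11 cells on PL4, at 3156 against 0.318 CPM, and on P3, at 835 against 0.363, but not on P1, at 239 against 258. Of the 7 folding genes with counts, 6 were higher in Enpp2-rich cells on PL4, 6 on P3 and 1 on P1, beside 54.0%, 41.7% and 42.9% of all 4052 genes. On PL4 the exception was Canx, at 1558 against 2185 CPM.

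**Figure D3:**
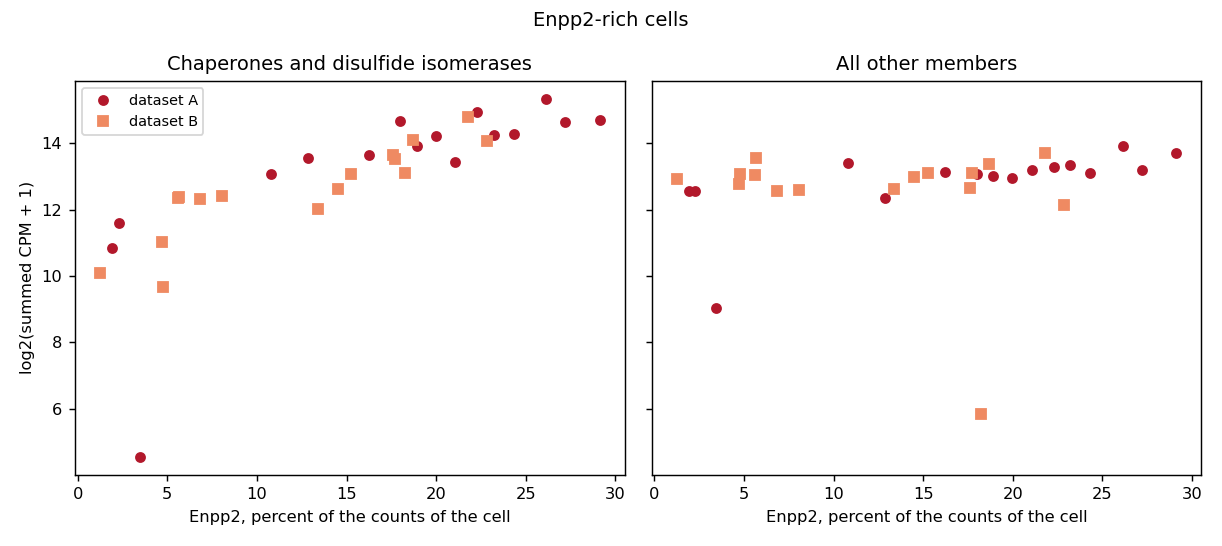
Summed level of the folding genes (left) and of the 58 other members (right) in each Enpp2-rich cell, as log2(summed CPM + 1) with Ttr and Enpp2 left out of the totals, against the percent of the cell's counts in Enpp2; points are cells, 16 per dataset. The folding genes lie higher where Enpp2 is higher (Spearman's rho of 0.84 for A and 0.93 for B), and for the other members rho is 0.71 and 0.01.

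Enpp2-rich cells differed widely among themselves in folding genes. Dataset A cells ran from 22.5 to 41142 CPM, summed, with a median of 17194. The lowest was one of the cells with markers of both classes, and without these the lowest was 3106. Dataset B cells ran from 808 to 28053, with a median of 5868. The medians in Sox11 cells were 2055 and 2143. Over the 16 cells of dataset A, the level on the log2 scale followed the cell's Enpp2 percent with Pearson's r of 0.75 and Spearman's rho of 0.84. Over the 16 of dataset B, r was 0.87 and rho 0.93. Leaving out the 2 cells farthest from the median Enpp2 percent gave r of 0.78 and 0.82. With Ttr and Enpp2 in the totals, r was 0.74 and 0.82, and without the 2 Enpp2-rich cells of dataset A that carried neuroblast genes it was 0.88 over 14 cells (rho 0.77, and r 0.66 with 2 further cells left out). For the other 58 members r was 0.63 (A) and -0.22 (B). Against the percent of Enpp2 and Ttr together, dataset A gave like values for the folding genes (r 0.48, rho 0.56) and the other members (r 0.47, rho 0.54), which were both 0.73 without 2 cells. Dataset B gave r 0.85 and rho 0.88 for the folding genes and -0.33 and -0.15 for the other members.

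The cells of a dataset share a gate, and Enpp2 percent is also the value that set the class. All these values are parts of one total per cell, so the correlations are descriptions. Enpp2-rich cells of dataset B lay on plates P1, P3 and PL4 (2, 4 and 10 cells), where folding genes summed to 1629, 4508 and 10760 CPM. The part of plate in the relation was not tested. Cells with more folding gene CPM also had fewer genes at 10 counts or more (r = -0.50 and -0.72). So did cells with a higher percent of Enpp2 and Ttr together (r = -0.86 and -0.75). The part of gene number in the relation was not tested. Over the 21 pairs of the 7 detected folding genes, rho had a median of 0.45 (0.15 to 0.86) in the first dataset and 0.25 (-0.05 to 0.67) in the second.

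The p24 proteins are cargo receptors that cycle between ER and Golgi, and as a group they were the only role besides chaperones and isomerases whose summed CPM was higher in Enpp2-rich cells of both datasets under both totals. They summed to 1906 and 1259 CPM in Enpp2-rich cells, 850 and 627 in Sox11 cells and 574 in the remaining cells, or 2.24-fold and 2.01-fold, and 1.45-fold and 1.61-fold with Ttr and Enpp2 in the totals. Of 11 p24 rows, 7 were tested, 4 had both Enpp2-rich pools above both Sox11 pools and 0 had both below, beside 23.7% and 32.9% of all genes. The 4 were Tmed10, Tmed3, Tmed4 and the pseudogene row Tmed10-ps.

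Tmed10 (p23) was at 668 and 400 CPM in Enpp2-rich cells, 128 and 49.4 in Sox11 cells and 127 in the remaining cells, a log2 difference of 2.88 (SE 1.15, adjusted p = 0.356). It reached 10 counts in 13 and 10 of 16 Enpp2-rich cells against 6 of 16 and 4 of 25 Sox11 cells. Tmed3 was at 663 and 228 CPM in Enpp2-rich cells, 66.6 and 24.6 in Sox11 cells and 0 in the remaining cells, a log2 difference of 3.65 (SE 1.35, adjusted p = 0.321). A single cell gave 98.9% of its counts in the Sox11 pool of dataset B. The row Tmed10-ps had the lowest adjusted p among members (0.266) at 4.50 and 3.59 CPM against 0.647 and 0.312, a log2 difference of 3.33 (SE 1.05). It is named as a pseudogene of Tmed10, and its few counts could be reads of the parent gene. Tmed4 was at 358 and 409 against 375 and 201 CPM, and its pools were ordered only after TMM scaling. For Tmed2, Tmed9 and Tmed1 the pools overlapped.

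Genes of entry into the ER differed among themselves in direction. The 7 rows of the channel and of Sec62 and Sec63 summed to 877 and 299 CPM in Enpp2-rich cells and to 1359 and 642 in Sox11 cells, lower by sum in both datasets (0.645-fold and 0.466-fold, and 0.418-fold and 0.373-fold with Ttr and Enpp2 in the totals). Sec61b and Sec61g encode the small subunits of the channel and were both higher in the Enpp2-rich pools. Sec61b was at 82.5 and 114 CPM in Enpp2-rich cells against 22.5 and 14.7 in Sox11 cells, a log2 difference of 2.59 (SE 1.70, adjusted p = 0.604). Sec61g was at 49.9 and 23.0 against 3.08 and 6.67, a log2 difference of 3.26 (SE 1.82, adjusted p = 0.522). For Sec61g 1 cell gave 88.8% of the counts in the Enpp2-rich pool of dataset A.

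Sec63, the J-domain protein that recruits BiP to the channel, was at 46.1 and 0 CPM in Enpp2-rich cells against 820 and 146 in Sox11 cells, and at 0 in the remaining cells. Sec61a2, a second form of the channel's core subunit, was at 7.53 and 0 against 282 and 53.4, and at 168 in the remaining cells. Both Sox11 pools lay above both Enpp2-rich pools for each gene, with log2 differences of -3.92 (SE 3.19, adjusted p = 0.686) and -5.00 (SE 3.38, adjusted p = 0.612). Over the alternatives run, the difference ran from -17.08 to -2.12 for Sec63 and from -15.56 to -3.28 for Sec61a2. The Enpp2-rich value of dataset A came from 1 cell in each case (99.6% and 100% of the counts). They reached 10 counts in few Sox11 cells, 5 and 4 for Sec63 and 3 and 5 for Sec61a2. Sec61a1, the main core subunit, was at 105 and 84.4 against 82.4 and 251 CPM, without a common direction. Sec62 was at 585 and 77.2 CPM against 149 and 171, higher in Enpp2-rich cells of dataset A and lower in those of dataset B. Its log2 difference was 1.502 (SE 1.40, adjusted p = 0.733), and -1.17 without the Enpp2-rich pool of dataset A.

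Of the 7 signal recognition particle genes, 6 were tested, and 1 had both Enpp2-rich pools higher and 1 both lower, beside 23.7% and 32.9% of all genes. Srp14, which encodes part of the Alu-binding end of the particle, was at 194 and 643 CPM in Enpp2-rich cells against 186 and 167 in Sox11 cells, and reached 10 counts in 6 and 12 of 16 Enpp2-rich cells against 5 of 16 and 9 of 25 Sox11 cells. Its log2 difference was 1.32 (SE 1.00, adjusted p = 0.654). Srp54a and Srp54c are near copies of one gene, so the division of reads between them is uncertain.

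Ssr1 to Ssr4 encode the translocon-associated protein complex, and they had no common direction. Ssr1 was at 967 and 740 CPM in Enpp2-rich cells against 498 and 414 in Sox11 cells, a log2 difference of 1.18 (SE 0.90, adjusted p = 0.657). That of Ssr1 was 0.58 without the Enpp2-rich pool of dataset A. Ssr2 was at 41.6 and 32.1 against 274 and 153 CPM, a log2 difference of -2.27 (SE 1.46, adjusted p = 0.591), and 1 cell per dataset gave 100% and 99.7% of its Enpp2-rich counts. Ssr3 and Ssr4 had overlapping pools.

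The signal peptidase genes summed to 1435 and 714 CPM in Enpp2-rich cells, 1175 and 1107 in Sox11 cells and 1681 in the remaining cells. Spcs1 was at 476 and 262 against 60.2 and 189 CPM, a log2 difference of 1.91 (SE 1.18, adjusted p = 0.573). That of Spcs1 was 0.96 without the Enpp2-rich pool of dataset A and 2.90 without the Sox11 pool of dataset B. Sec11c, a catalytic subunit, was at 263 and 156 against 123.2 and 130.1 CPM. Sec11a, the alternative catalytic subunit, was at 79.6 and 0 against 242 and 79.6 CPM, and its pools overlapped after TMM scaling. Spcs2 was at 302 and 217 against 640 and 407 CPM, and its pools also overlapped after TMM scaling.

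Coat genes had no common direction. The 11 COPII rows, which include the scaffold Sec16a and the interacting protein Sec23ip, summed to 611 and 1584 CPM in Enpp2-rich cells and to 1158 and 870 in Sox11 cells. The Enpp2-rich pool was thus the lower in dataset A (0.528-fold) and the higher in dataset B (1.82-fold). Sec23b was at 166 and 677 against 144 and 16.8 CPM, Sec23a at 209 and 470 against 70.5 and 238, and Sec13 at 202 and 211 against 86.6 and 106. For each of the 3 both Enpp2-rich pools lay above both Sox11 pools after TMM scaling, and for Sec23a only after it. The cargo-binding subunits went the other way or overlapped. Sec24c was at 0.758 and 151 CPM against 232 and 199, with both Enpp2-rich pools below (log2 difference -1.59, SE 2.21, adjusted p = 0.834). The log2 difference of Sec24c was -0.63 without the Enpp2-rich pool of dataset A and -7.51 without that of dataset B. Sec24a was at 2.15 and 0 CPM against 431 and 0.156, so its log2 difference of -7.19 (SE 4.52, adjusted p = 0.584) rests on the Sox11 pool of dataset A and was 3.29 without it.

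The 8 COPI rows summed to 977 and 1544 CPM in Enpp2-rich cells and to 1345 and 1263 in Sox11 cells. Cope was at 661 and 429 against 409 and 99.8 CPM, a log2 difference of 1.37 (SE 1.16, adjusted p = 0.701). That of Cope was 0.63 without the Enpp2-rich pool of dataset A and 2.79 without the Sox11 pool of dataset A. Copa, the alpha subunit of the coat, was at 91.9 and 27.4 against 303 and 295 CPM, with both Enpp2-rich pools below (log2 difference -1.94, SE 1.36, adjusted p = 0.625), and 1 cell gave 99.8% of its counts in the Enpp2-rich pool of dataset A. Copb2 was at 21.4 and 180.5 against 237 and 182 CPM. Sec22b, a SNARE of vesicles between ER and Golgi, was at 307 and 409 against 212 and 267 CPM, and at 0.0618 in the remaining cells, a log2 difference of 0.78 (SE 0.90, adjusted p = 0.788).

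**Figure D4:**
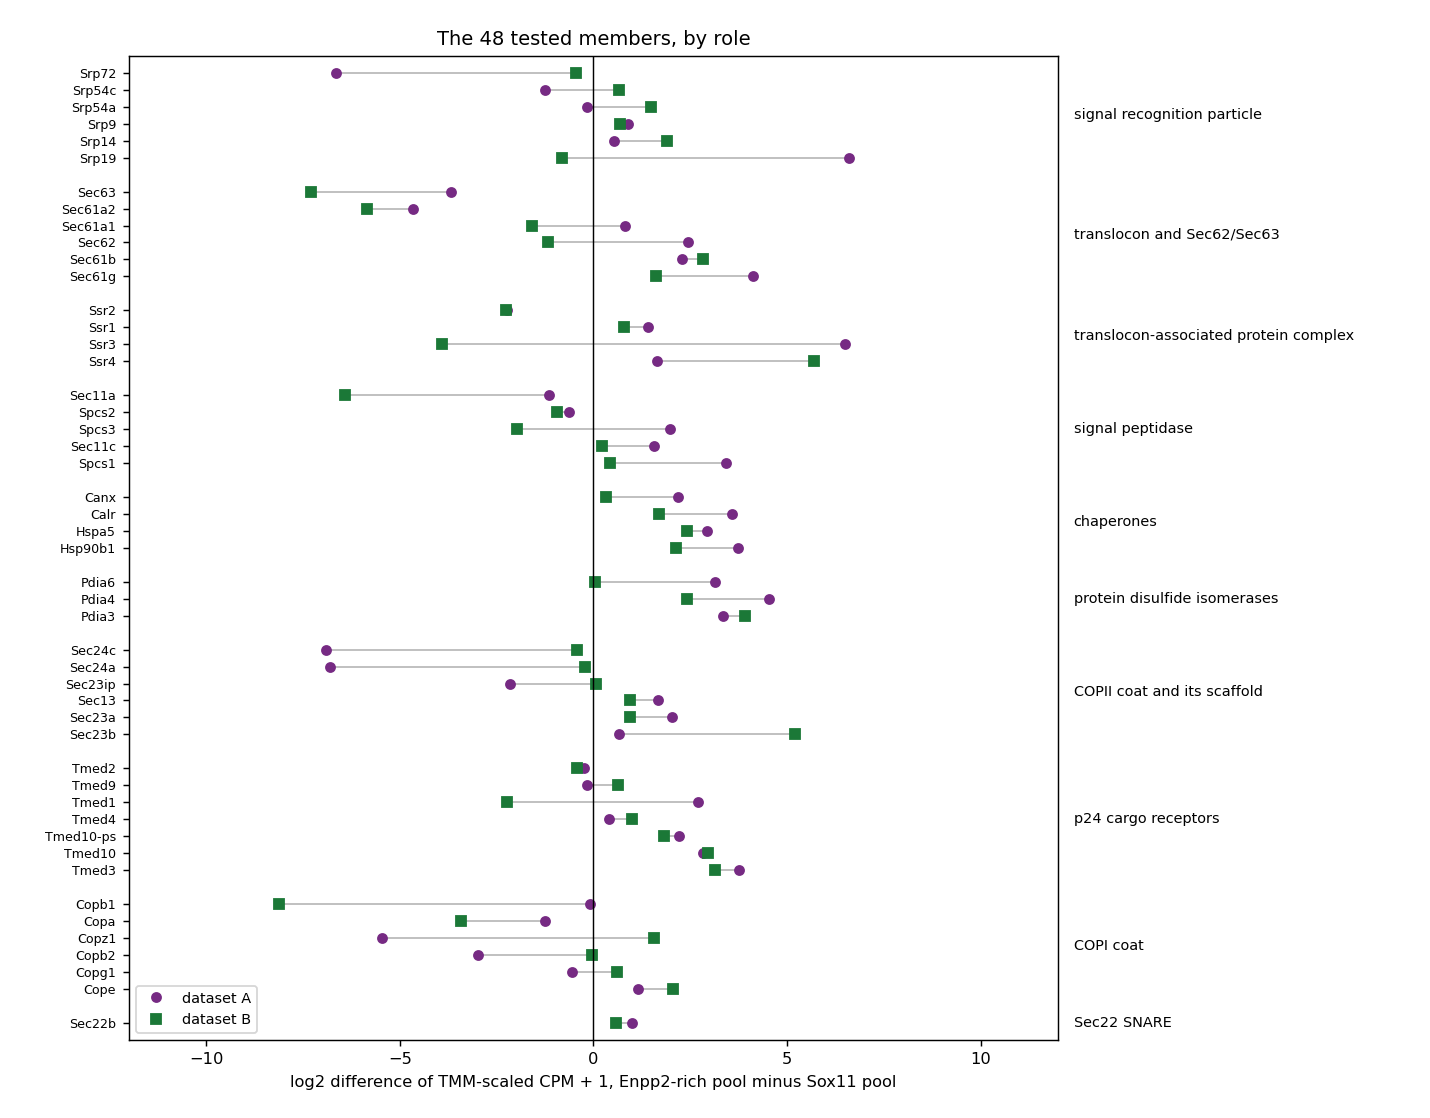
Log2 difference of TMM-scaled CPM + 1 between the Enpp2-rich and the Sox11 pool, for each of the 48 tested members, grouped by role; circles are dataset A and squares dataset B, and there are no error bars because each point compares 1 pool with 1 pool. The 4 chaperones and 3 isomerases lie at or above 0 in both datasets (Pdia6 at 0.04 in dataset B), and the coats and the translocon hold genes on both sides of 0.

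Over all roles, 24 of the 48 tested members were higher in Enpp2-rich cells of both datasets, 12 were lower in both and 12 had opposite signs, beside 30.2%, 40% and 29.8% of all genes tested. The 18 members under the filter included 5 with no count in any cell, which were Pdia5, Sec16b, Sec31b, Copz2 and Tmed8. Sec31a, an outer coat protein of COPII vesicles, reached 10 counts in 1 cell and Sec16a in 3. The rows Spcs2-ps, Tmed2b and Sec61bl are copies or pseudogenes of other members and were at 0.968 CPM or less in every pool. The rule also took in Sec14l1 and Sec14l2, lipid transfer-like proteins outside this pathway, each with 10 counts in 1 cell.

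Detection was compared after equalising depth. After each cell was thinned to 300000 counts, a member had a count in a mean of 28.3% and 26.5% of Enpp2-rich cells, 24.7% and 19.0% of Sox11 cells and 15.3% of the remaining cells. Unthinned, at 10 counts or more, these shares were 25.2% and 24.5%, 20.3% and 17.2%, and 13.1%. Over all 15303 genes without Ttr and Enpp2, the thinned shares were 7.44% and 9.09% in Enpp2-rich cells, 10.0% and 9.55% in Sox11 cells and 6.37% in the remaining cells. The members' shares were thus the higher in Enpp2-rich cells of each dataset while those of all genes were the lower, a difference for which no test was run. In dataset A it lay in the 7 folding genes with counts, each of which had the higher share in Enpp2-rich cells. Hsp90b1, for example, had a thinned count in 100% of them against 50% of Sox11 cells, and Pdia4 in 75% against 31.25%. The mean over the other members was slightly lower in Enpp2-rich cells of dataset A and higher in those of dataset B. The protocols mention no molecular identifiers, so low counts in a cell need not be separate molecules.

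The remaining cells, of mixed markers, held 8663 CPM of all members together, near the 9896 and 8380 of the Sox11 pools and below the 23076 and 15298 of the Enpp2-rich pools. Of their 9 cells, 2 had almost no member counts, with 0 members at 10 counts. Without cells that had under 300 genes at 10 counts, the sum was 11534. Hspa5, Hsp90b1 and Calr each reached 10 counts in 4 or 5 of the 9 cells, whereas Pdia4 did so in 1 and Pdia6, Tmed3 and Sec61g in 0. With 1 pool there is no replicate for these values.

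Other genes of the pathway were taken from 4 lists. The edgeR test called 0 of them. Of the ER stress response list, 13 of 26 genes in the table were tested, with 5 higher and 2 lower in both Enpp2-rich pools and a median log2 difference of 1.14. Selenos, an ER membrane selenoprotein of the degradation machinery, was at 859 and 511 CPM in Enpp2-rich cells against 60.1 and 131 in Sox11 cells (log2 difference 3.17, SE 1.09, adjusted p = 0.295). Xbp1, a transcription factor of the unfolded protein response, was at 357 and 173 against 163 and 318 CPM, in opposite directions in the datasets (log2 difference 0.49, SE 1.10, adjusted p = 0.901). Ddit3, the stress-induced factor CHOP, was under the filter at 188 and 65.4 CPM against 20.9 and 0. Edem2, a degradation factor, was at 2.44 and 5.14 against 357 and 168 CPM. Ddit3 and Edem2 were named after their values were seen.

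Of 19 tested genes of the oligosaccharyltransferase and translocon partner list, 9 had both Enpp2-rich pools higher and 0 both lower, with a median of 1.32. Dad1 and Ost4, small oligosaccharyltransferase subunits, were at 308 and 175 against 189 and 48.02 CPM and at 81.4 and 117 against 84.6 and 39.7, with log2 differences of 1.32 (SE 1.32, adjusted p = 0.759) and 0.84 (SE 1.53, adjusted p = 0.878). Of 12 tested folding enzymes outside the members, 2 were higher and 1 lower, with a median of 1.27. P4hb, the first protein disulfide isomerase described, was at 666 and 167 against 215 and 215 CPM, and Tmx1, a membrane-bound oxidoreductase, at 841 and 238 against 105 and 655, so neither had a common direction. Their log2 differences were 1.36 (SE 1.20, adjusted p = 0.714) and 0.93 (SE 1.38, adjusted p = 0.846).

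Of 27 tested cargo receptors and vesicle genes, 7 were higher and 4 lower, with a median of 1.03. Kdelr2, a receptor that returns proteins such as BiP to the ER, was at 216 and 69.4 against 195 and 372 CPM (log2 difference -0.59, SE 1.24, adjusted p = 0.892). Rab1a, a small GTPase of transport from ER to Golgi, was at 122.7 and 702 against 681 and 407 CPM (log2 difference -0.39, SE 1.07, adjusted p = 0.920). Over all 4052 genes the shares were 23.7% higher and 32.9% lower and the median was -0.34, so the medians of the 4 lists lay above it, as that of the members did.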

How the data were processed

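The deposited table holds read counts per gene and cell that the authors did not normalize, as its whole numbers and unequal totals show. The submitters' processing notes name FastQC 0.12.1, STAR 2.7.10b, featureCounts (Subread 2.1.1) and the builds GRCm39 and mm10, with no role given. The members and gene lists were chosen with earlier results of these data known. All cells of one class and one dataset were added up into a pool, giving 4 pools for testing, since single cells are not replicates. Because Ttr and Enpp2 can take most of a cell's counts and so depress all other CPM, both were left out of totals. Ttr, Enpp2 and Sox11 were not tested. Genes with 10 counts in 8 of 82 cells were kept. edgeR 4.0.16 (R 4.3.3; TMM, quasi-likelihood F-test, threshold 0.05, Benjamini-Hochberg) gave log2 differences, standard errors and adjusted p-values, and DESeq2 1.42.0 was an alternative. Per the labels each dataset had its own gate, shared by its Enpp2-rich and its Sox11 pool, which pairs them, and the fit with the dataset as a replicate block was an alternative. Differences within a dataset use TMM-scaled CPM with a pseudocount of 1. No cell was removed and no doublet caller was run. Other tools were Python 3.11.15, numpy 2.4.6, pandas 2.3.3, scipy 1.17.1 and matplotlib 3.10.9. The edgeR code was checked on simulated data. There it found changes at a low spread but none at the spread of these pools. A lack of called genes therefore does not show that genes were alike. Named genes were the member detected in most cells of each role, all chaperones and isomerases tested, the 5 members with the highest and the 5 with the lowest log2 difference, and the 2 genes detected in most cells of each pathway list. Other members were added to complete a role. Promoter windows are those of RefSeq on GRCm38.p6, and the build behind the counts was not needed for them.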

Additional observations from a re-analysis of the deposited data

Results flagged for a closer look

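Of the 31 tested genes that the naming rule chose, 6 had opposite signs in the datasets: the Enpp2-rich pool was above the Sox11 pool in one dataset and below it in the other, on the log2 scale of TMM-scaled CPM. Among all 48 tested members 12 had opposite signs, Sec62 included, beside 29.8% of all genes tested. The difference between the datasets was not tested. Sec62 differed by 2.43 in dataset A and -1.18 in dataset B, Xbp1 by 1.59 and -0.91, Tmx1 by 3.45 and -1.50, and P4hb by 2.09 and -0.40. Kdelr2 differed by 0.61 in dataset A and -2.45 in dataset B. Rab1a went the opposite way, at -2.005 and 0.75.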

How the results depend on the processing

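The count of genes called was 0 with the dataset as a replicate block and in every fit that left out 1 pool (a lone pool is assumed to vary like the other class), but was 258 of 13185 (1.96%) without a filter on low counts, with Pdia3 (adjusted p = 0.038) the 1 member called of 61, and 1038 of 4052 with DESeq2. The members' median log2 difference ran from 0.28 to 1.17 when 1 pool was left out, the lowest without the Enpp2-rich pool of dataset A. The members with all Enpp2-rich pools higher then numbered 23 to 30 (32.6% to 37.0% of all genes), and those lower 10 to 15 (43.1% to 45.3% of all genes). Over the same 4 fits, the log2 difference ran from -1.17 to 2.51 for Sec62, -0.59 to 1.21 for Xbp1, -0.79 to 2.71 for Tmx1, -0.49 to 2.27 for P4hb and -1.51 to 0.25 for Rab1a, reversing without the Enpp2-rich pool of dataset A. Rab1a (0.08) and Sec24a (-15.92 to 3.29) reversed without the Sox11 pool of dataset A, and Kdelr2 (-2.15 to 0.25) without the Enpp2-rich pool of dataset B. The other 24 of 31 tested named genes kept their sign in all alternatives run. Summed member CPM of Enpp2-rich cells of dataset A was 13346 with Ttr and Enpp2 in the totals. As medians over cells it was 11073 in Sox11 cells of dataset A and 11001 in the remaining cells. The pooled sum of the remaining cells, 8663, was 10926 without the deepest cell and 11534 without cells under 300 genes, a choice made after seeing the data, as was leaving out cells with markers of both classes. Shares of cells moved to 25.2%, 24.5%, 20.3% and 13.1% without thinning at 10 counts, in Enpp2-rich cells of datasets A and B, Sox11 cells of dataset A and the remaining cells. The causes were not tested. With 2 pools a class, many members rest on 1 or a few cells, so counts of 0 say nothing about stability and do not show that genes were alike.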
